A study of Mus musculus with 18 samples.

Results

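The nuclear-encoded genes of the mitochondrial respiratory chain were followed in 18 mouse RNA-seq libraries. Members were taken by symbol: genes starting Nduf, Uqcr, Cox4, Cox5, Cox6, Cox7, Cox8 or Atp5, with Sdha, Sdhb, Sdhc, Sdhd, Cyc1 and Cycs. Of 93 matching rows, 1 pseudogene and 5 genes with a mean under 1 CPM (counts scaled to a common library total) were dropped, which left 87 members of 25909 genes. They comprise 36 subunits of complex I, 4 complex I assembly factors (Ndufaf1 to Ndufaf4), 4 genes of complex II, 9 of complex III, cytochrome c (Cycs), 17 of complex IV and 13 of complex V. The 3 others matched by name only: Cox4nb (Emc8 in GENCODE M21, of the endoplasmic reticulum membrane complex), Atp5s and Atp5sl (Dmac2 in GENCODE M21). The label therefore held for 84 of the 87 genes. Just outside the threshold were Cox8b at 0 CPM, Cox6a2 at 0.0263, Atp5l at 0.117, Cox8c at 0.265 and Atp5g2 at 0.354, and just inside were Cox7b2 at 2.26, Cycs at 2.36 and Cox4i2 at 2.91. All 87 passed the filter on low counts.

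The cells came from SGET mouse embryonic stem cells of strain B6CBA/129. Wild-type (WT) cells and cells with the nuclear receptor gene Esrrb knocked out (KO) were kept on gelatin in 2i/L medium. Epiblast-like cells (EpiLC) were made from them on fibronectin with activin A and bFGF, and were not sorted. Primordial germ cell-like cells (PGCLC) were made from EpiLC with BMP4, LIF, SCF, BMP8a and EGF, and were sorted as SG+ETlow at day 3 or day 5. Each genotype had 3 libraries at each stage: WT 1, 2 and 3, and KO A5, B1 and A2. The KO names recur at every stage and are taken here as KO lines, so the spread among KO libraries is also a spread among lines. Nothing in the labels says that the WT libraries came from separate cultures, so p-values measure only the spread between these libraries.

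The respiratory chain passes electrons from NADH (complex I) and succinate (complex II) through ubiquinol to complex III, then through cytochrome c to oxygen at complex IV. The proton gradient that complexes I, III and IV build drives ATP synthesis at complex V. Most subunits are encoded in the nucleus and a small set in the mitochondrial genome. Several subunits of complex IV exist as isoforms with tissue-restricted expression, among them COX4I2, COX6B2 and COX7A1, and NDUFA4L2 is a hypoxia-associated relative of the complex IV subunit NDUFA4. Naive embryonic stem cells use oxidative phosphorylation and primed epiblast cells lean on glycolysis. Estrogen-related receptors, PGC-1 coactivators, NRF1, GABPA and YY1 are known regulators of nuclear respiratory genes.

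Library totals ran from 3030797 to 5282191 counts (median 4243289). Esrrb was counted 2434 to 3125 times in the WT PGCLC libraries and 359 to 933 times in the KO ones. In EpiLC it was counted 127, 113 and 79 times in WT 1, 2 and 3, and 29, 18 and 167 times in KO A5, B1 and A2. The count in the EpiLC library labelled KO A2 thus lay above all WT EpiLC libraries. Its median log2 ratio to WT over non-member genes was 0.34 on chromosome 1 and -0.48 on chromosome 11. In line A2 these medians were 0.31 and -0.42 at day 3, and 0.32 and -0.46 at day 5. The source of the Esrrb counts in that library was not tested. That library also stood apart in markers of other cell types. Its summed level of 6 trophoblast markers was 1266 CPM, against 52.2 to 58.3 in WT and 89.0 and 194 in the other KO lines. Krt8 and Krt18 gave 487 and 686 CPM of the KO A2 sum, and were at 7.56 to 8.4 and 42.8 to 47.2 in WT EpiLC. Cdx2, Gata2, Gata3 and Hand1 gave little of it, from 5.48 CPM (Cdx2) to 40.2 (Hand1), against at most 0.988 in WT EpiLC. The 7 mesenchyme markers of the KO A2 library summed to 6114 CPM, against 391 to 446 in WT and 369 and 540.4 in the other KO lines. Fn1 alone gave 5474 CPM of that sum, and was at 363 to 421 in WT EpiLC and 1116 to 1214 in WT PGCLC. Dcn went the other way, at 2.38 CPM in KO A2 against 5.77 to 9.14 in WT EpiLC. Of 6 mesenchyme markers tested in EpiLC, 3 were called higher in KO and 1 lower. The 6 epiblast markers of the KO A2 library summed to 1719 CPM, against 5057 to 5156 in WT and 3384 and 3884 in the other KO lines. No marker of those 3 lists was at 0 in every library of either EpiLC group. The 7 germ cell markers summed to 1016 to 1069 CPM in WT and 805 to 1126 in KO at day 3, and to 798 to 814 and 611 to 1018 at day 5. In EpiLC, the 5 naive pluripotency markers summed to 241 CPM in KO A2, against 75.6 to 101 in WT and 40.6 and 66.9 in the other KO lines. In PGCLC, these naive markers summed to 1679 to 1752 CPM in WT and 724 to 1117 in KO at day 3. At day 5 they summed to 1561 to 1662 CPM in WT and 679 to 1053 in KO. The 6 epiblast markers summed to 305 to 328 CPM in WT and 363 to 541 in KO at day 3, and the trophoblast markers to 69.1 to 104 and 124 to 308. The counts of called members that rest on KO EpiLC are also given without line A2. The part of the marker differences in the results below was not tested.

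Levels of different genes were compared as TMM-scaled CPM per kilobase of the principal transcript. In WT EpiLC the highest were Atp5b (the catalytic beta subunit of ATP synthase) at 1280.5, Atp5a1 (its alpha subunit) at 649.9 and Atp5g3 (a c-ring gene) at 563 CPM per kb. Cox4i1, the common isoform of complex IV subunit 4, followed at 464, and Uqcr10 of complex III at 363. The lowest were Cox4i2 at 0.70, Cycs at 1.2 and Atp5g1, another c-ring gene, at 3.14 CPM per kb. Of the 87 members, 16 share at least 20% of their 50-base words with another annotated gene, and the files are named for unique counts. The part of such sharing in low levels was not tested. That holds also for Atp5l, dropped at 0.117 CPM, which shares 84.8% of its 50-base words with 14 other genes. Among the members, Cycs shares 28.5% of its words with 76 other genes, Atp5o 50.3%, Ndufb4 37.0%, Ndufb6 34.1%, Cox5a 32.0% and Ndufa12 26.2%. These genes, and the 38 members that overlap another M21 gene, have uncertain levels: the strand setting of the counting is not given in the sources used here.

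Summed over the 84 chain genes, transcript level was highest in WT EpiLC and lower in KO than in WT at each stage. It was 13074 ± 246 CPM in WT EpiLC, 11093 ± 272 in WT day 3 and 11545 ± 255 in WT day 5 (mean ± SD, n = 3). In KO it was 10853 ± 1012 in EpiLC, 9887 ± 194 at day 3 and 10091 ± 442 at day 5. At each of the 3 stages the highest KO library lay below the lowest WT library. Atp5a1 and Atp5b hold much of the sum, but without them the KO and WT libraries still did not overlap at any stage. In EpiLC the chain summed to 11402 CPM in KO A5, 11473 in B1 and 9686 in A2, so the lines other than A2 also lay below the lowest WT library at 12877. In bulk samples, fewer cells of a type and less RNA per cell cannot be told apart.

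By complex, the KO libraries lay below all WT libraries at all 3 stages for complexes II, IV and V. Complex V summed to 5862 to 6039 CPM in WT EpiLC and 4406 to 5132 in KO EpiLC. At day 3 it summed to 5074 to 5285 in WT and 4367 to 4477 in KO, and at day 5 to 5183 to 5361 and 4441 to 4649.8. In WT, complex IV summed to 1521 to 1579 CPM in EpiLC, 1562 to 1630.4 at day 3 and 1643 to 1793 at day 5. In KO it summed to 1287 to 1357 CPM, 1366 to 1549.6 and 1242 to 1593. Complex III showed no overlap of genotypes either, with 1654 to 1768 CPM in WT and 1041 to 1502 in KO EpiLC, 1126 to 1227 and 1002 to 1066 at day 3, and 1239 to 1299 and 993 to 1189 at day 5. Complex I overlapped between genotypes at day 3 and at day 5.

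**Figure D1:**
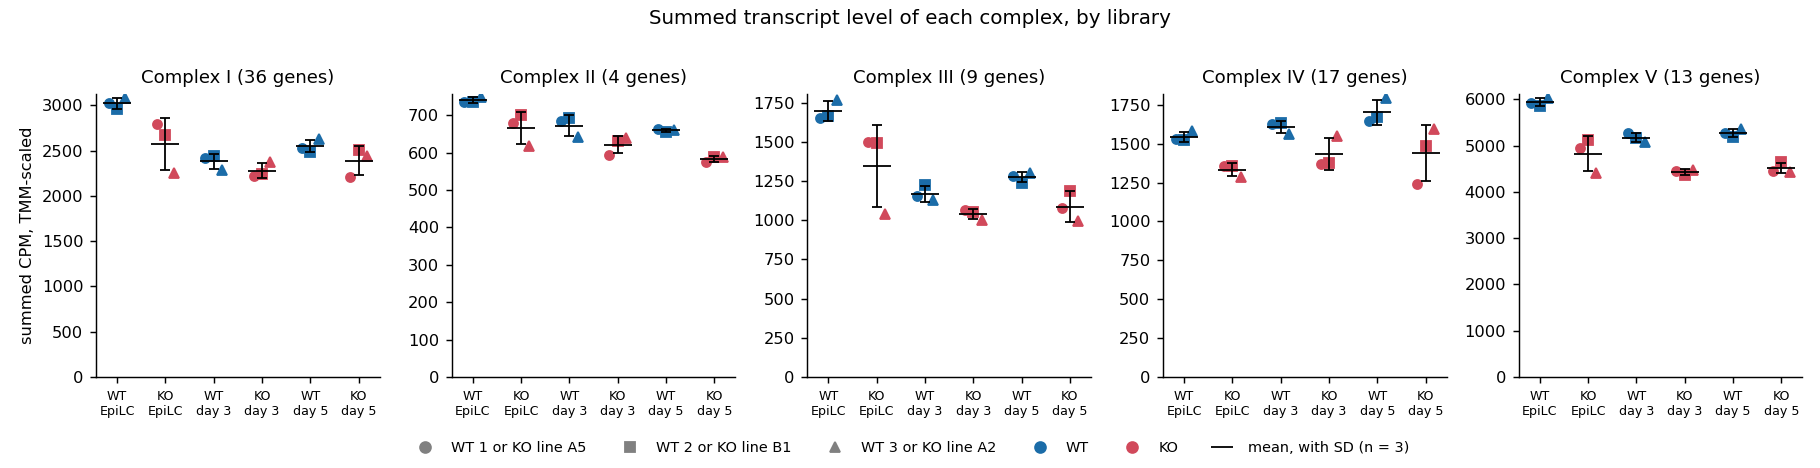
Summed TMM-scaled CPM of the genes of each complex in each library; the x axis gives genotype and stage, symbols mark the library, and bars give mean and SD (n = 3). Complex V runs from 5862 to 6039 CPM in WT EpiLC and does not pass 5132 CPM in any KO library, while complex I overlaps between WT and KO at days 3 and 5.

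Log2 fold changes and their standard errors (SE) below come from edgeR's quasi-likelihood fit to all 18 libraries, and a gene is called at a Benjamini-Hochberg adjusted p under 0.05 over 12856 genes. In EpiLC, 19 members were lower in KO than in WT and 0 were higher, where 4.15% of all genes tested were called lower and 6.93% higher. At an unadjusted p under 0.05 the members numbered 43 lower and 0 higher, against 1602 lower and 2160 higher of all 12856 genes. DESeq2 and limma-trend called 0 members higher too. The median log2 fold change was -0.27 over the members and 0.01 over all genes tested. All 3 KO libraries lay below all 3 WT libraries for 43 of the 87 members, against 16.3% of all genes. The called genes came from complex I (7 of 36), III (3 of 9), IV (2 of 17) and V (7 of 13), and 0 from complex II and the assembly factors, of which 3 and 1 passed an unadjusted p under 0.05.

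**Figure D2:**
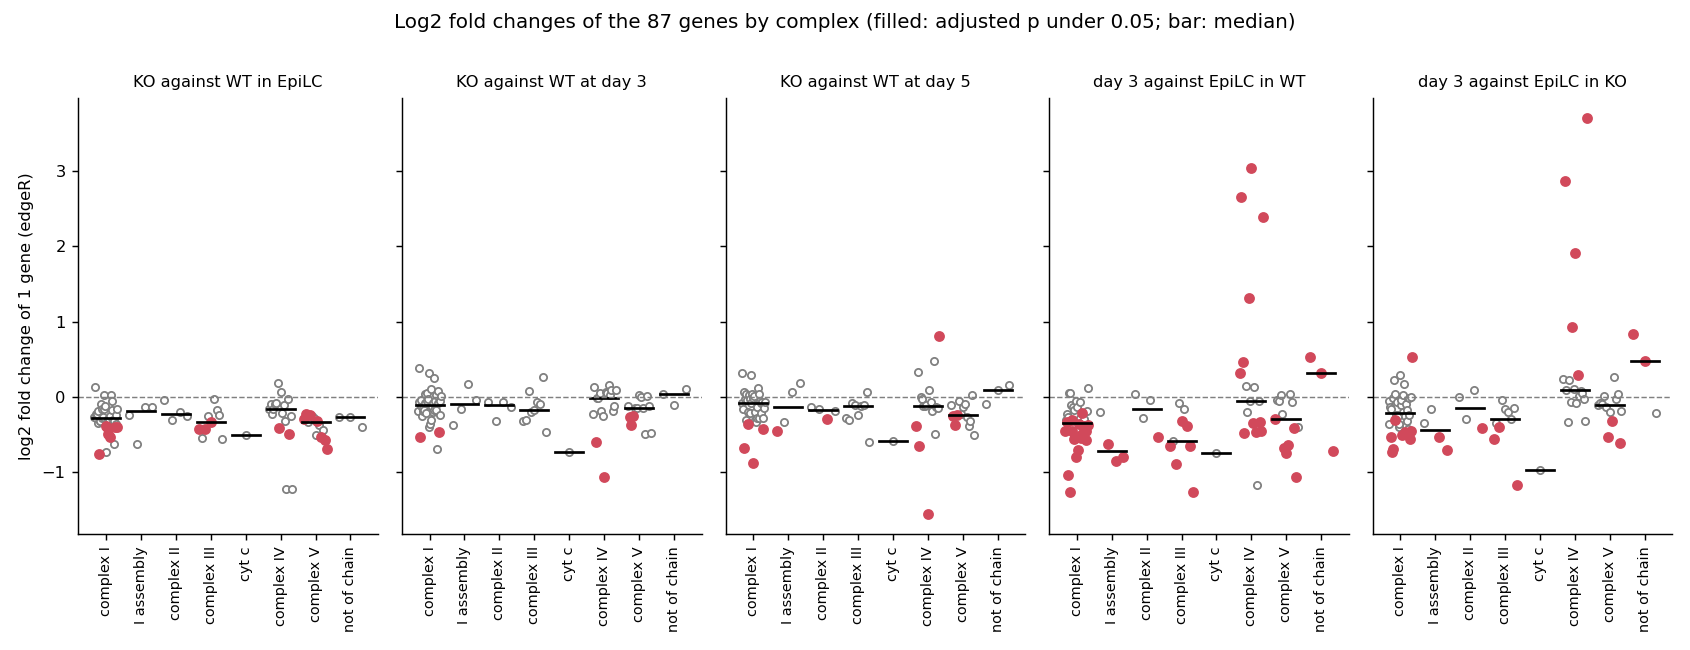
Log2 fold change of each of the 87 genes (y axis, edgeR) grouped by complex (x axis) in 5 comparisons; filled points passed an adjusted p of 0.05 and bars are medians. In EpiLC the called genes are all lower in KO, and on induction complex IV holds the genes that rose by up to 3.71.

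Ndufa5, a matrix-arm subunit of complex I, had the largest called difference in EpiLC. It stood at 48.0, 47.4 and 51.4 CPM in WT and 32.2, 35.8 and 18.3 in KO A5, B1 and A2 (log2 fold change -0.77, SE 0.19, adjusted p = 0.0232). The groups did not overlap and A2 was lowest. Atp5o, the stalk subunit of ATP synthase that binds the F1 head, stood at 294, 279.7 and 301 CPM in WT and 230.2, 183 and 127 in KO (log2 fold change -0.70, SE 0.18, adjusted p = 0.0274). Atp5k, the small e subunit of the membrane part, stood at 67.9, 66.0 and 60.8 CPM in WT and 49.5, 48.7 and 32.1 in KO (log2 fold change -0.58, SE 0.15, adjusted p = 0.0267). In all 3 genes the KO line A2 gave the lowest value. Cyc1, the cytochrome c1 of complex III, stood at 332, 335 and 343 CPM in WT and 267, 285 and 201 in KO (log2 fold change -0.42, SE 0.10, adjusted p = 0.0200). Ndufb7, of the membrane arm of complex I, was at 96.7, 98.3 and 90.8 CPM in WT and 73.4, 76.4 and 53.3 in KO (log2 fold change -0.49, SE 0.12, adjusted p = 0.0220). Atp5a1 (log2 fold change -0.30, SE 0.07, adjusted p = 0.0210), Cox8a (-0.49, SE 0.13, adjusted p = 0.0307) and Cox6c (-0.41, SE 0.11, adjusted p = 0.0301) were also lower in KO.

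These EpiLC calls rested on the shared estimate of the spread. With only the EpiLC libraries in the fit, 0 members and 0 of all genes were called. Without any 1 of the 3 WT libraries 0 members were called, where 1.38% to 1.51% of all genes were. Without the KO A2 EpiLC library 2 members (2.3%) were called lower, near the 2.28% of all genes. Without line A2 at every stage 17 members (19.5%) were lower, against 7.18% of all genes. The log2 fold change of Ndufa5 was then -0.53, that of Atp5o -0.50 and no longer called, that of Atp5k -0.41 and that of Cyc1 -0.29. Library totals in place of TMM factors gave 6 (6.9%), limma-trend 7 (8.05%) and the fit without a filter 11 (12.6%). In either direction, these called 11.9%, 10.2% and 5.76% of all genes, and 2.59%, 2.81% and 1.87% were lower.

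At day 3, 7 members were lower in KO than in WT and 0 were higher, where 5.18% of all genes were called lower and 5% higher. At an unadjusted p under 0.05 1 member was higher and 16 were lower, against 1702 higher and 1516 lower of all 12856 genes. DESeq2 called 10 members lower (11.5%) and 0 higher, where 6.18% of all genes were lower and 6.21% higher. The median over the members was -0.12. KO libraries lay below all WT libraries for 29 members (18.3% of all genes) and above for 2 (18.3% of all genes). The 7 were Cox7a1 and Cox5a of complex IV, Atp5b, Atp5c1 and Atp5d of the F1 part of complex V, and Ndufa12 and Ndufs8 of complex I. Without line A2 at any stage, 15 members were lower, where 10.3% of all genes were lower and 10.6% higher. Leaving out a WT day 3 library gave 1, 2 or 4 calls, and leaving out KO B1 or KO A2 gave 4. These were 1.15% to 4.6% of members, where 4.74% to 6.47% of all genes were called in either direction.

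At day 5, 12 members were lower in KO and 1, Ndufa4l2, was higher, where 7.62% of all genes were called lower and 9.83% higher. The median over the members was -0.13. KO libraries lay below all WT libraries for 33 members (20.3% of all genes) and above for 2 (20.9% of all genes). The same 7 genes that were called at day 3 were called again, joined by Cox4i1, Sdhc, Ndufa8, Ndufb4 and Ndufaf1. Without line A2 at any stage 22 members were lower and 1 was higher, where 14.2% of all genes were lower and 15.7% higher. Leaving out single libraries left 6 to 10 calls (6.9% to 11.5%), where 9.96% to 16.7% of all genes were called in either direction. There were 6 without WT 1 and without WT 3, 8 without WT 2, and 7 without KO A2.

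Across the stages, 2 members (2.3%) were lower in KO at all 3, Atp5b and Atp5d, and 7 (8.05%) at 2 or more, against 0.311% and 4.2% of all genes. At 1 or more stages 29 of the 87 members (33.3%) were called lower, against 12.4% of all genes. A log2 fold change below 0 at all 3 stages was found in 54 members (62.1%) and in 20.8% of all genes. Atp5b (chr10:128083273-128090391, GRCm38, plus strand) encodes the subunit that carries the catalytic sites of ATP synthase. Its levels were 2449, 2436 and 2476 CPM in WT EpiLC, 2036, 2187 and 2047 in KO EpiLC, 2443, 2368 and 2333 in WT day 3, and 1968, 1997 and 1970.1 in KO day 3. At day 5 they were 2441, 2459 and 2513 CPM in WT and 2001, 2208 and 2011 in KO, so the groups did not overlap at any stage. The log2 fold changes were -0.23 (SE 0.06, adjusted p = 0.0313), -0.27 (SE 0.06, adjusted p = 0.0138) and -0.25 (SE 0.06, adjusted p = 0.0117). Atp5d, the delta subunit of the central stalk, lay between 138 and 159 CPM in the 9 WT libraries and between 117 and 131 in the 9 KO libraries. Its log2 fold changes were -0.24, -0.26 and -0.24, each with SE 0.07. Atp5c1, the gamma subunit that turns within the F1 head, was lower at day 3 (-0.37, SE 0.11, adjusted p = 0.0358) and at day 5 (-0.37, SE 0.11, adjusted p = 0.0245).

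Ndufa12, an accessory subunit of complex I, had levels of 23.7, 23.0 and 22.0 CPM in WT day 3 and 16.7, 13.6 and 17.1 in KO day 3 (log2 fold change -0.53, SE 0.14, adjusted p = 0.0244). At day 5 it was at 23.5, 30.2 and 24.5 CPM in WT and 14.5, 17.0 and 17.4 in KO (log2 fold change -0.68, SE 0.14, adjusted p = 0.00290). The day 5 call held under each of the 14 alternatives run on it. Ndufs8, an iron-sulfur subunit, was at 68.1, 67.8 and 62.5 CPM in WT day 3 against 51.5, 48.0 and 44.3 in KO, and at 76.6, 77.9 and 79.8 against 62.0, 59.0 and 53.5 at day 5. Both differences passed the test (-0.46, SE 0.12, adjusted p = 0.0242, and -0.42, SE 0.12, adjusted p = 0.0229). In neither gene did WT and KO overlap at day 3 or day 5. Ndufb4, of the membrane arm, was at 10.9, 10.4 and 12.9 CPM in WT day 5 and 5.70, 5.81 and 6.95 in KO (-0.88, SE 0.27, adjusted p = 0.0351), a call lost in 6 of 14 alternatives.

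**Figure D3:**
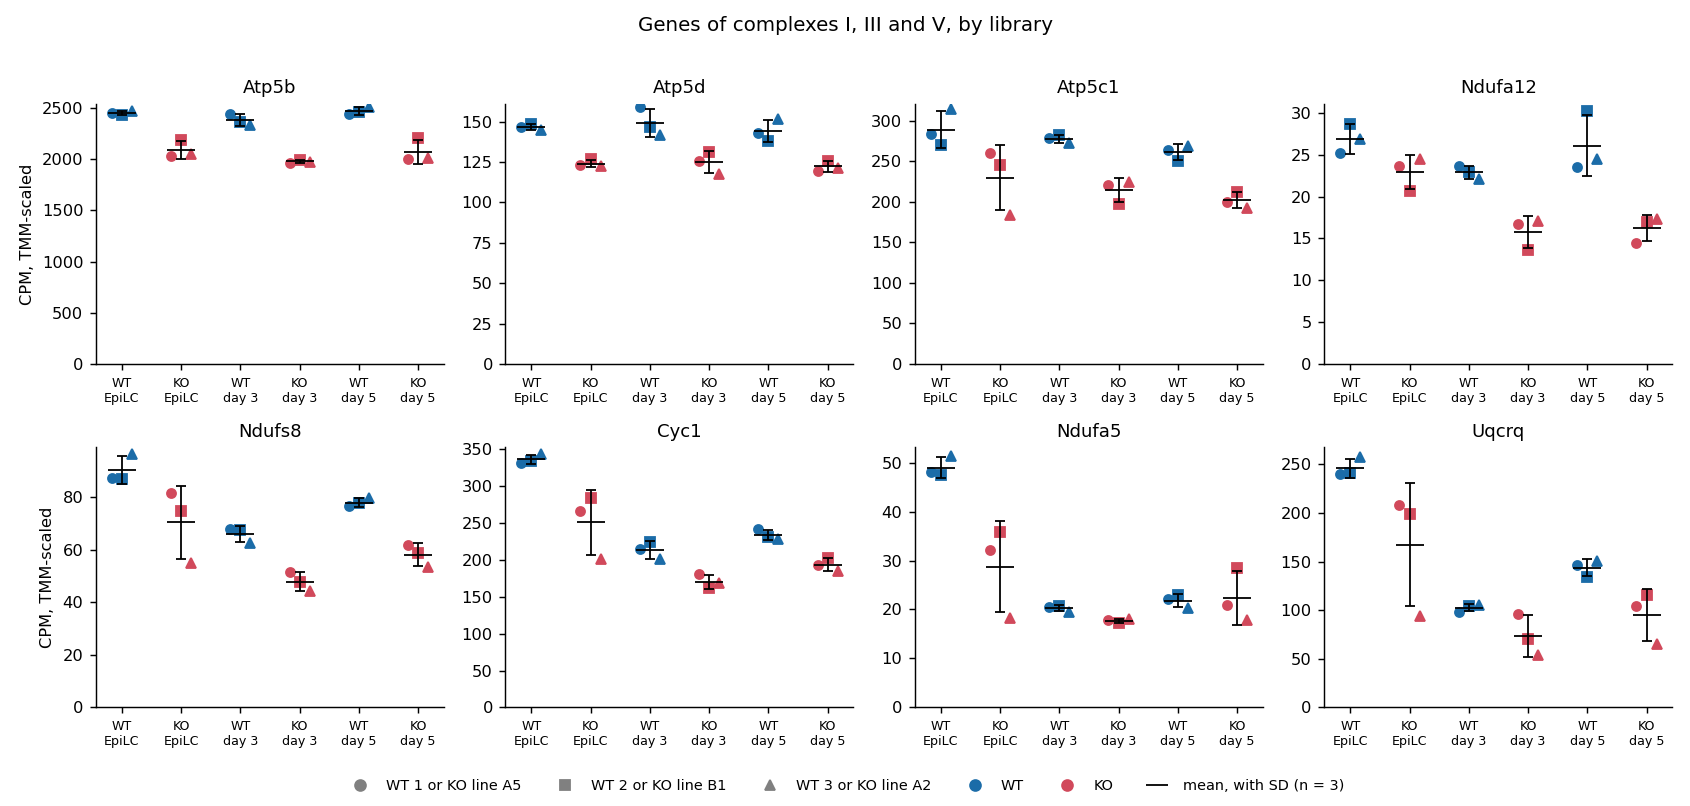
TMM-scaled CPM (y axis) of 8 genes of complexes I, III and V in each library (x axis, genotype and stage), with mean and SD (n = 3). Atp5b lies between 2333 and 2513 CPM in all WT libraries and between 1968 and 2208 in all KO libraries. Ndufa5 lies between 47.4 and 51.4 CPM in WT EpiLC and between 19.5 and 20.7 at day 3 in WT.

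From EpiLC to day 3 in WT, 42 members fell and 8 rose, where 28.5% of all genes fell and 29% rose, 57.5% in either direction. The median log2 fold change was -0.32 over the members and under 0.01 over all genes. The members that fell came from every complex: 20 of 36 in complex I, 3 of 4 assembly factors, 1 of 4 in complex II, 6 of 9 in complex III, 5 of 17 in complex IV and 6 of 13 in complex V, with Cox4nb outside the chain. The 8 that rose were 6 genes of complex IV and the non-chain Atp5s and Atp5sl. Single libraries left out gave 35 to 41 calls (40.2% to 47.1%, against 49.7% to 51% of all genes).

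Ndufa5 had the largest fall in WT, from 48.0, 47.4 and 51.4 CPM in EpiLC to 20.5, 20.7 and 19.5 at day 3 (log2 fold change -1.27, SE 0.20, adjusted p = 5.07e-05). Uqcrq, a small subunit of complex III, fell from 239.6, 241 and 257 CPM to 98.3, 104 and 105 (-1.26, SE 0.26, adjusted p = 0.000583). Atp5k fell from 67.9, 66.0 and 60.8 CPM to 28.2, 34.3 and 30.0 (-1.07, SE 0.15, adjusted p = 2.6e-05). In these 3 genes the stages did not overlap. Ndufa2 (-1.04, SE 0.16), Uqcr11 (-0.90, SE 0.12), Ndufaf4 (-0.80, SE 0.19), Atp5g1 (-0.74, SE 0.26) and Atp5f1 (-0.68, SE 0.11) were among the other members that fell. Atp5b and Sdha passed no test in this step: Atp5b had a log2 fold change of -0.04 (adjusted p = 0.58) and Sdha of 0.03 (adjusted p = 0.723).

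Of the restricted isoforms of complex IV, Cox7a1, Cox4i2 and Cox6b2 rose, as did Ndufa4l2, while Cox7b2 passed no test. Cox7a1 (ENSMUSG00000074218, chr7:30184144-30186078, GRCm38, plus strand), the isoform of subunit 7A known from heart and skeletal muscle, was at 4.46, 2.96 and 1.56 CPM in WT EpiLC, 27.0, 25.6 and 22.0 at day 3 and 39.2, 39.9 and 42.5 at day 5. It rose by a log2 fold change of 3.04 from EpiLC to day 3 (SE 0.29, adjusted p = 4.46e-07), a rise that held under each of the 15 alternatives run on it. In KO it was at 3.47, 3.53 and 2.38 CPM in EpiLC, 10.2, 11.2 and 14.3 at day 3 and 11.9, 19.2 and 10.2 at day 5. It rose on induction in KO as well (1.92, SE 0.30, adjusted p = 0.000123). All KO libraries lay below all WT libraries at day 3 (-1.06, SE 0.25, adjusted p = 0.0117) and at day 5 (-1.56, SE 0.24, adjusted p = 0.000326), a 2.94-fold lower level at day 5. The genotypes overlapped in EpiLC (0.06, SE 0.36, adjusted p = 0.929).

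The partner isoform Cox7a2 was at 111, 122 and 130.1 CPM in WT EpiLC and 96.8, 98.3 and 88.6 at day 3, a fall of -0.35 (SE 0.13, adjusted p = 0.0248), and its KO against WT values at day 3 and day 5 were 0.06 and 0.09 (adjusted p = 0.829 and 0.654). Per kilobase, Cox7a1 made up 1.98% to 6.33% of the sum of Cox7a1 and Cox7a2 in WT EpiLC, 29.4% to 31.9% in WT day 3 and 41.8% to 43.5% in WT day 5. In KO it made up 4.22% to 5.48%, 16.3% to 17.2% and 14.1% to 24.1%. The shares of the genotypes did not overlap at either PGCLC stage.

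Ndufa4l2 (chr10:127514967-127517154, GRCm38, plus strand) was at 3.93, 2.96 and 3.39 CPM in WT EpiLC and 2.32, 1.51 and 0.476 in KO EpiLC. At day 3 it was at 18.3, 16.9 and 18.9 CPM in WT and 18.5, 21.8 and 17.6 in KO, and at day 5 at 20.3, 21.8 and 26.6 in WT and 39.9, 51.7 and 29.0 in KO. It rose on induction in WT (2.39, SE 0.29, adjusted p = 4.33e-06) and in KO (3.71, SE 0.33, adjusted p = 6.26e-07). All KO libraries lay below WT in EpiLC (-1.23, SE 0.40, adjusted p = 0.0547) and above WT at day 5 (0.81, SE 0.22, adjusted p = 0.0206), and the genotypes overlapped at day 3. The day 5 call was lost in 4 of 14 alternatives. The gene overlaps Shmt2 in the annotation. Its partner Ndufa4, a standard complex IV subunit, fell on induction in WT from 163, 163 and 181 CPM to 120.0, 124 and 125 (-0.46, SE 0.13, adjusted p = 0.00559).

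Cox4i2, the lung-type isoform of subunit 4, was at 0.262 to 0.782 CPM in WT EpiLC and 2.90 to 4.09 at day 3. It rose by 2.66 in WT (SE 0.55, adjusted p = 0.000677) and by 2.88 in KO (SE 0.55, adjusted p = 0.000666), with a level of 0 in the EpiLC library labelled KO A2. Even so, it made up at most 1.64% of the Cox4i1 and Cox4i2 sum per kilobase in any library. Cox6b2, the testis-type isoform of subunit 6B, was at 19.7, 18.3 and 12.8 CPM in WT EpiLC and 39.1, 43.1 and 43.9 at day 3 (1.31, SE 0.32, adjusted p = 0.00223). In KO it rose from 10.2, 14.9 and 32.9 CPM to 30.4, 36.7 and 43.3 (0.93, SE 0.31, adjusted p = 0.0263). KO and WT overlapped at every stage for Cox4i2 and Cox6b2. Cox7b2, the testis-type isoform of subunit 7B, was at 3.93, 2.47 and 1.56 CPM in WT EpiLC and 1.21, 0.942 and 1.36 at day 3 (-1.17, SE 0.61, adjusted p = 0.109). It was thus below its EpiLC level in all WT day 3 libraries, on at most 32 counts in any library. Its partner Cox7b fell in WT from 143, 132 and 149 CPM to 107, 100.2 and 99.1 (-0.47, SE 0.12, adjusted p = 0.00261).

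Cox5a and Cox4i1, common core-associated subunits, also rose in WT, and were called lower in KO at day 5. For both genes all KO libraries already lay below all WT libraries in EpiLC, where neither was called. Cox5a (chr9:57521274-57532426, GRCm38, plus strand) was at 164, 174 and 167 CPM in WT EpiLC, 238, 230.3 and 230.2 at day 3 and 247, 250.1 and 249 at day 5. The KO libraries held 141, 154 and 136 CPM in EpiLC, 147, 153 and 160.0 at day 3 and 126, 184 and 164 at day 5. In WT the rise to day 3 was 0.47 (SE 0.10, adjusted p = 0.00113), and in KO the value was 0.09 (SE 0.10, adjusted p = 0.502). Cox5a was lower in KO at day 3 (-0.60, SE 0.10, adjusted p = 0.00166) and day 5 (-0.65, SE 0.10, adjusted p = 0.000440). The day 3 call held under each of the 14 alternatives run. Cox4i1 rose by 0.31 in WT (SE 0.11, adjusted p = 0.0207), from 353 to 358 CPM in EpiLC to 416 to 455 at day 3, and was lower in KO at day 5 (-0.39, SE 0.11, adjusted p = 0.0206). Cox4i1 overlaps Cox4nb, which fell in WT (-0.72, SE 0.13, adjusted p = 0.000203).

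**Figure D4:**
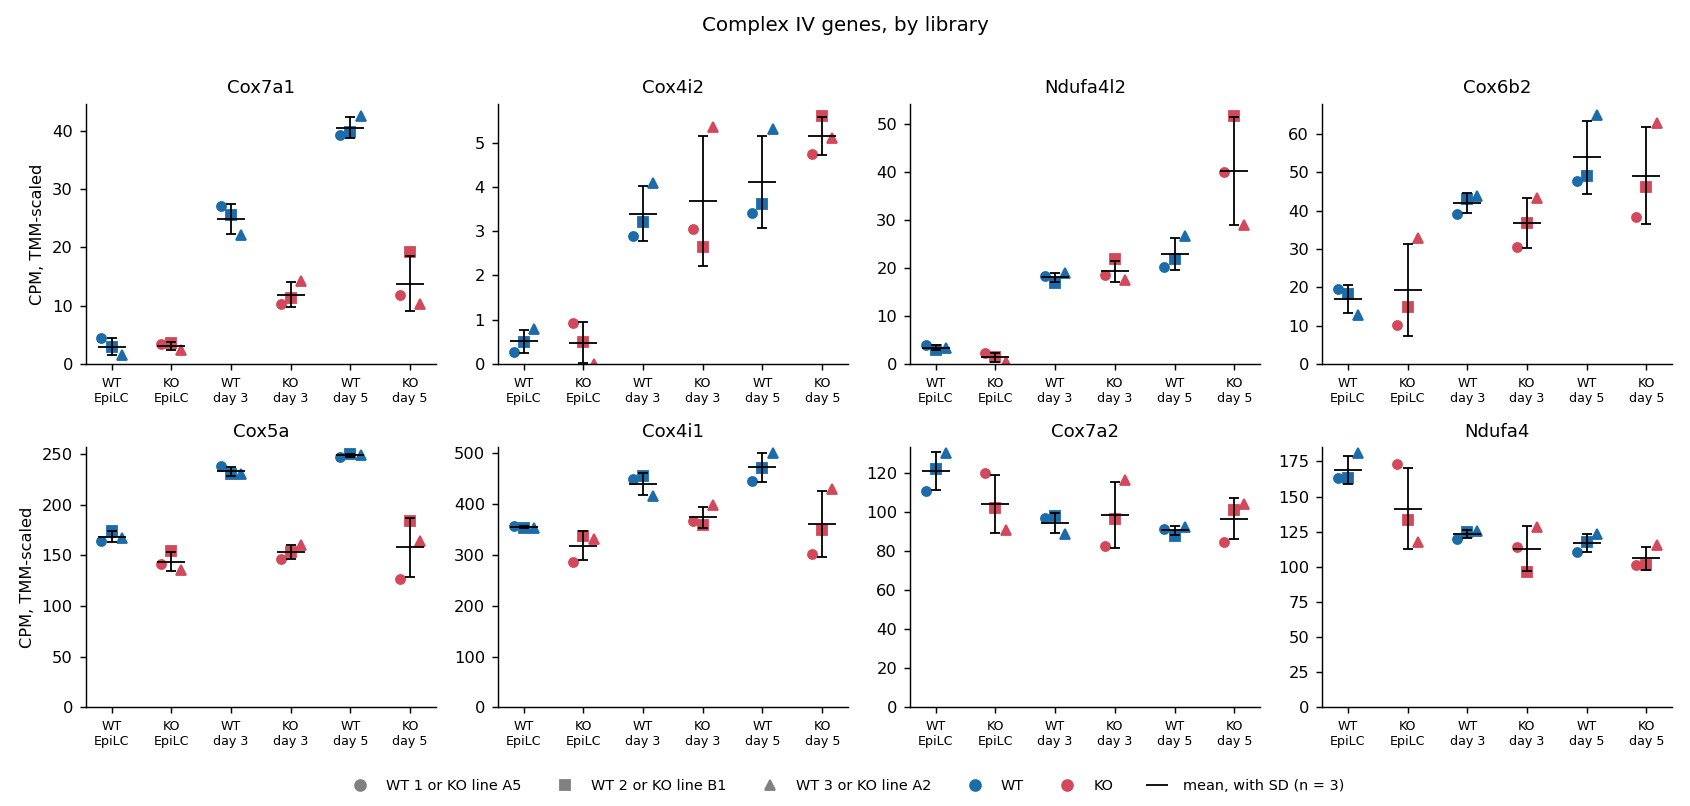
TMM-scaled CPM (y axis) of 8 complex IV genes in each library (x axis, genotype and stage), with mean and SD (n = 3). Cox7a1 goes from between 1.56 and 4.46 CPM in WT EpiLC to between 39.2 and 42.5 CPM at day 5 in WT and to between 10.2 and 19.2 in KO, while Cox7a2 stays between 82.6 and 130.1 CPM in all libraries.

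From EpiLC to day 3 in KO, 17 members fell and 8 rose, where 21.4% of all genes fell and 20.6% rose. The median log2 fold change was -0.15. Of the members, 16 fell in both genotypes, 26 passed the test in WT alone and 1, Ndufa12, in KO alone. Over all genes, 16.5% fell in both genotypes, 12% passed in WT alone and 4.91% in KO alone. Uqcrq fell from 208, 199 and 94.5 CPM in KO EpiLC to 96.5, 70.8 and 53.8 (-1.18, SE 0.26, adjusted p = 0.00197), and Ndufa2 by -0.74 (SE 0.16, adjusted p = 0.00147). Cyc1 fell in KO (-0.56, SE 0.10, adjusted p = 0.000521) much as in WT (-0.66, SE 0.10, adjusted p = 5.67e-05). The 6 genes that rose in both genotypes were Cox7a1, Cox4i2, Cox6b2, Ndufa4l2, Atp5s and Atp5sl. The KO count changed with the KO A2 EpiLC library: without it 33 fell and 8 rose, where 24.6% of all genes fell and 25.5% rose. Without line A2 at any stage 38 fell and 7 rose, where 29% of all genes fell and 28% rose. With only the libraries compared 1 fell and 3 rose, where 8.89% of all genes fell and 9.3% rose.

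The difference between the genotypes in this step was tested as an interaction. By edgeR 0 members were called, where 6.59% of all genes were. At an unadjusted p under 0.05, 13 of the 87 members and 3038 of all 12856 genes passed. DESeq2 called 1 member (1.15%, against 10.2% of all genes) and limma-trend 0 (against 7.23%). The lowest adjusted p belonged to Ndufb6, a membrane-arm subunit of complex I (0.50, SE 0.15, adjusted p = 0.0571). Cox7a1 had an interaction of -1.12 (SE 0.44, adjusted p = 0.127) and Cox5a of -0.38 (SE 0.15, adjusted p = 0.131). With the KO line names and WT numbers as a block, 2 members (2.3%) were called, Ndufb6 and Ndufa4l2, against 11.3% of all genes. Without line A2 at any stage Ndufb6, Cox5a and Cox7a1 (3.45%) were called, against 14.7% of all genes.

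From day 3 to day 5 few genes of any kind were called in the fit to all libraries. In WT 1 member rose, where 0.288% of all genes rose and 0.482% fell: Ndufa8, an intermembrane-space subunit of complex I, from 45.1, 44.6 and 44.5 CPM to 68.5, 62.9 and 64.5 (0.54, SE 0.10, adjusted p = 0.0166). In KO 1 member rose, where 0.366% of all genes rose and 0.187% fell: Ndufa4l2 (1.06, SE 0.23, adjusted p = 0.0492). At an unadjusted p under 0.05, 6 of the 87 members passed in WT and 8 in KO, against 1791 and 1583 of all 12856 genes. Leaving out any 1 of the 6 WT libraries ended the Ndufa8 call. With only the WT libraries compared, 17 members rose and 2 fell, where 15.1% of all genes rose and 15.7% fell. The interaction in this step called 0 members by edgeR, DESeq2 and limma-trend, where edgeR and limma-trend called 0% of all genes and DESeq2 0.113%. In this interaction 2 members and 561 of all 12856 genes passed at an unadjusted p under 0.05. With the block, 2 members (2.3%) were called in each genotype, against 3.01% of all genes in WT and 1.68% in KO.

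Complex II, succinate dehydrogenase, has 4 genes. Sdha, the flavoprotein, ranged from 291 to 359 CPM over all 18 libraries and passed no test. Sdhb, the iron-sulfur subunit, lay below WT in all KO libraries at all 3 stages but passed no test (-0.31, -0.32 and -0.16). Sdhc, a membrane anchor, was lower in KO at day 5, at 109.6, 94.3 and 104 CPM against 119, 125 and 133 (-0.29, SE 0.08, adjusted p = 0.0220). Sdhd, the other anchor, fell on induction in both genotypes (-0.54, SE 0.09, in WT and -0.41, SE 0.09, in KO). Cyc1 lay below WT in every KO library at day 3 (181, 162 and 168 against 215, 224 and 201 CPM) and day 5 (193, 202 and 184 against 242, 231 and 228), with adjusted p of 0.0548 and 0.0749. Cycs had at most 4.69 CPM in any library and passed no test.

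The KO libraries were not alike along the chromosomes, and 17 members lie on the chromosomes concerned. Among genes with a mean of at least 10 CPM, the median log2 ratio to WT of the other genes on chromosome 16 was -0.42 to -0.48 in lines B1 and A2 at every stage and -0.06 to 0.05 in A5. On chromosome 11 it was -0.42 to -0.48 in A2, on chromosome 1 0.31 to 0.34 in A2, and on chromosome 8 between -0.09 and -0.19 in all 3 lines. Atp5o, Atp5j and Ndufb4 lie on chromosome 16. At day 3 Atp5o was at 231, 225 and 205 CPM in WT, 198 in KO A5, 138 in B1 and 135 in A2, and Atp5j, a stalk subunit, at 163, 170.2 and 162 CPM in WT and 137, 88.7 and 124 in KO. Uqcrq and Uqcr10, on chromosome 11, were lowest in A2, with Uqcrq at 53.8 CPM against 96.5 and 70.8 in the other KO lines at day 3. Ndufa10 and Ndufs1, on chromosome 1, were highest in A2: Ndufs1, the large iron-sulfur subunit of complex I, was at 236 CPM against 129 and 145 at day 3. With members on these chromosomes left out, 16 were lower in EpiLC, 7 at day 3 and 9 at day 5. Over all genes on every chromosome, 4.15%, 5.18% and 7.62% were called lower at these stages. Atp5b, Atp5d and Ndufa12 all lie on chromosome 10, and Cox7a1, Cox5a and Ndufs8 on chromosomes 7, 9 and 19. For these autosomes only a joint median was taken, so a shift of chromosome 10 alone was not examined. The part of the chromosome shifts in the KO differences was not tested. Over all members the median log2 ratio to WT was -0.18 in A5, -0.23 in B1 and -0.50 in A2 in EpiLC, -0.12, -0.19 and -0.08 at day 3, and -0.23, -0.08 and -0.15 at day 5.

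**Figure D5:**
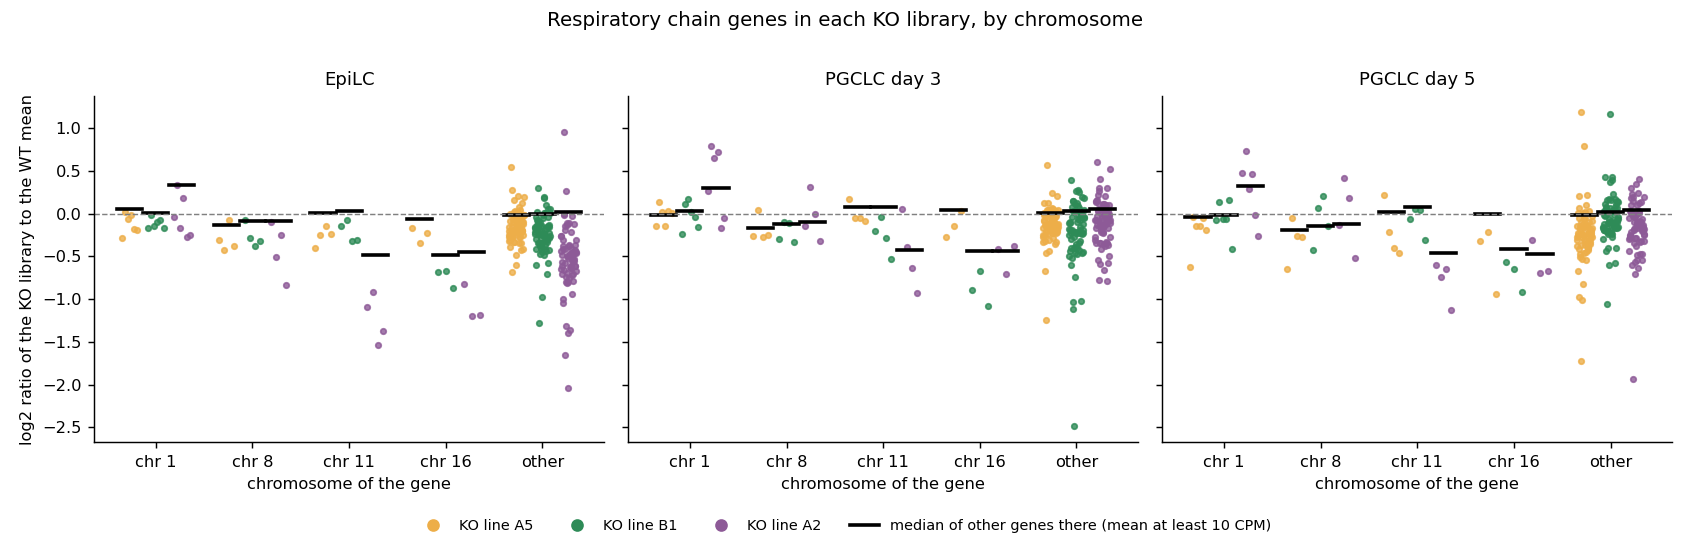
Log2 ratio of each KO library to the WT mean of its stage (y axis) for each of the 87 genes, by chromosome (x axis) and KO line (colour); black bars are medians of the other genes there with a mean of at least 10 CPM, sex chromosomes left out. Members on chromosome 16 lie below 0 in lines B1 and A2, and those on chromosome 11 in line A2 except 1 at day 3, where the medians of the other genes are also below 0; the single point near -2.5 at day 3 is Cycs, counted 0 times in B1.

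Outside the symbol rule, 36 assembly factors of the chain were measured. For this and the next lists, the shares of all genes called lower in KO were 4.15% in EpiLC, 5.18% at day 3 and 7.62% at day 5. None of these lists was corrected for the chromosome shifts of the KO lines, and their part in the listed differences was not tested. In KO EpiLC 0 were called by edgeR (median -0.17, 5 at an unadjusted p under 0.05), 2 were lower at day 3, and at day 5 2 were lower and 1, Lyrm7, was higher. The 2 lower genes were the same at both stages. Tmem70, needed for ATP synthase assembly, was lower at day 3 (-0.80, SE 0.12, adjusted p = 0.000365) and at day 5 (-0.74, SE 0.11, adjusted p = 0.000338), and rose in WT on induction (0.59, SE 0.11, adjusted p = 0.000376). Cox17, the copper chaperone of complex IV, was lower at day 3 (-0.71, SE 0.20, adjusted p = 0.0341) and day 5 (-1.0, SE 0.20, adjusted p = 0.00251). Tmem70 was the only factor of the 36 with a called interaction in the first step (-0.87, SE 0.16, adjusted p = 0.00637), where 3.63% of all genes had a called interaction below 0. On induction in WT, 14 of the 36 fell and 4 rose, with Uqcc3 (-1.40) the largest fall.

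The tricarboxylic acid cycle feeds the chain with NADH and succinate. Of 14 genes, 0 were called by edgeR in KO EpiLC, where 4 passed an unadjusted p under 0.05, 5 were lower at day 3 and 6 at day 5. Idh2, the mitochondrial NADP-dependent isocitrate dehydrogenase, was lower by -1.19 at day 3 (SE 0.18, adjusted p = 0.000659) and -0.82 at day 5 (SE 0.18, adjusted p = 0.00521). It rose by 1.63 in WT on induction and by 0.52 in KO, with a called interaction (-1.11, SE 0.26, adjusted p = 0.0213). Sucla2, a subunit of succinyl-CoA synthetase, was lower by -0.57 at day 3 (SE 0.08, adjusted p = 0.000375) and -0.79 at day 5 (SE 0.08, adjusted p = 1.19e-05). Idh3a and Idh3g were lower at both stages, and Dld at day 5.

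Of the 13 protein genes of the mitochondrial genome, 6 were listed at 0 in every library and 7 could be tested. At day 3, 3 were higher in KO: mt-Nd1 (0.48, SE 0.12, adjusted p = 0.0156), mt-Nd4 (0.42, SE 0.12, adjusted p = 0.0345) and mt-Cytb (0.77, SE 0.18, adjusted p = 0.0108). In WT 5 of the 7 fell on induction, led by mt-Cytb (-1.69, SE 0.18, adjusted p = 1.4e-06), and mt-Nd6 rose. Of 76 genes of the mitochondrial ribosome, 18 were lower in KO EpiLC (median -0.35), 4 at day 3, a share near that of all genes, and 9 at day 5. On induction in WT 53 of them fell (median -0.59), where 28.5% of all genes fell. Of 84 tested genes of the cytosolic ribosome, 22 were lower in KO EpiLC (median -0.33), 1 was lower and 1 higher at day 3, and 1 was lower and 2 were higher at day 5.

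Among 20 regulators of respiratory genes, Esrrb included, 18 could be tested. The PGC-1 alpha gene Ppargc1a was at 0 CPM in every library, and Esrrg was at or near 0. Esrra, the ubiquitous estrogen-related receptor, was at 42.3, 49.5 and 43.6 CPM in WT day 3 and 40.4, 30.8 and 25.0 in KO, and passed no KO test. Ppargc1b, the PGC-1 beta coactivator, was higher in KO at day 5 (1.05, SE 0.28, adjusted p = 0.0172), as were Nrf1 (0.38, SE 0.11, adjusted p = 0.0272), Mycn (1.33, SE 0.22, adjusted p = 0.000713) and Hcfc1. Mycn was lower in KO in EpiLC (-0.81, SE 0.22, adjusted p = 0.0319), the opposite direction, and Myc was higher at day 3 (1.83, SE 0.53, adjusted p = 0.0377). The mitochondrial DNA polymerase gene Polg was lower at day 5, as was Esrrb itself, at day 3 too (for Polg -0.40, SE 0.10, adjusted p = 0.00827). Gabpa, which overlaps Atp5j on chromosome 16, was at 291.5 CPM in KO A5 and at 185 and 182 in B1 and A2 at day 3, against 283 to 294 in WT.

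Start-site windows were available for 72 of the 87 members (RefSeq, GRCm38.p6, 250 bases before to 50 after each gene's start). The nuclear receptor half-site AAGGTCA, on either strand, was in 7 of the 72 (9.72%) and in 5.38% of all 27025 genes with a window. TCAAGGTCA, the extended site that ESRRB is known to bind and which contains the half-site, was in 2 (2.78%), Atp5g3 and Sdhd, and in 0.466% of all genes. The NRF1 motif, given by name only, was in 5 members (6.94%, against 1.07% of all genes), the ETS motif CCGGAAGT in 5 (6.94%, against 4.31%) and the YY1 motif AAGATGGCG in 8 (11.1%, against 1.64%). These are matches of letters, not measured sites. The 7 half-site matches are printed to show which members carry the half-site, and only those of Atp5g3 and Sdhd lie in the extended site. Sequences run 5′ to 3′ in the direction of the gene, with the half-site or its reverse complement in capitals.
Atp5g3, chr2:73911362-73911388, minus strand: tgttacaaagTGACCTTgagcgtcttc
Sdhd, chr9:50603800-50603823, minus strand: ggttgtagagTGACCTTgagccct
Atp5k, chr5:108434360-108434386, minus strand: ttccggcgcgAAGGTCAcggacaaaat
Atp5e, chr2:174464061-174464087, minus strand: tactcaggccTGACCTTcctgctgccg
Ndufb2, chr6:39592374-39592400, plus strand: gagcagcagtAAGGTCAgccaagagca
Ndufb4, chr16:37654407-37654433, minus strand: cctgagcctgAAGGTCAgactcgagag
Ndufs5, chr4:123718398-123718424, minus strand: ttctcgagtgTGACCTTgctcaagtag

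In Atp5g3 the match starts 52 bases before the start site and in Sdhd 36 bases after it. Atp5g3 was at 396, 394 and 416 CPM in WT EpiLC and 326, 356 and 287 in KO EpiLC (-0.32, SE 0.10, adjusted p = 0.0450), a call lost in 10 of 14 alternatives, and its KO against WT values were -0.01 at day 3 and -0.09 at day 5 (adjusted p = 0.975 and 0.565). It fell on induction in WT (-0.64, SE 0.10, adjusted p = 4.2e-05) and in KO (-0.33, SE 0.10, adjusted p = 0.0125). Of the 7 genes that were lower in KO at 2 or more stages, none had a half-site match. The match was found in 9.72% of members with a window and 5.38% of all genes with one. So few genes cannot show a difference from these shares, and some of them may lack a window. The 250 bases before the start of Cox7a1, the member with the largest KO difference, are given beside those of Atp5g3, where capitals mark the extended site. They hold 0 half-site matches in Cox7a1 and 1 in Atp5g3.
Atp5g3, chr2:73911327-73911576, minus strand: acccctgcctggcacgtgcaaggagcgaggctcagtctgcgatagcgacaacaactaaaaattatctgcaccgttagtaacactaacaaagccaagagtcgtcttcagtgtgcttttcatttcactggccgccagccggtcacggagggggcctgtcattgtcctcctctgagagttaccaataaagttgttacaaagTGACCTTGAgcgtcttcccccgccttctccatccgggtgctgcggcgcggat
Cox7a1, chr7:30183921-30184170, plus strand: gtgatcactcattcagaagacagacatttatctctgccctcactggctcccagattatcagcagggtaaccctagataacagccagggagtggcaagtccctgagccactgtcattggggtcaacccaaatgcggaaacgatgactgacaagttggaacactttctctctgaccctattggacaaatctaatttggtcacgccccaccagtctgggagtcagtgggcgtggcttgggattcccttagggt

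The members varied together to different degrees. The Pearson correlation of a member's log2 CPM with the mean z-score of the members over the 18 libraries was highest for Ndufb7 (0.91), Cyc1 (0.90) and Ndufc2 (0.90), as a description with the stages and lines shared by all points. It was lowest for Cox6b2 (-0.49), Cox4i2 (-0.34), Ndufa4l2 (-0.30) and Cox7a1 (-0.23), and it was 0.31 for Cox7b2. Outside the members, the genes most like their mean were Bola2 (0.94), Tceb2 (0.93), Srp14 (0.93), 2700094K13Rik (0.93) and Mrpl15 (0.92).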

How the data were processed

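The authors deposited raw counts per Ensembl gene for each of 18 polyA-selected libraries and a CPM table of the series, per the file headers. The deposited CPM equal counts divided by library total to within 5.46e-12. The submitters' processing notes list Trim Galore 0.4.3.1 and the builds mm10 and GRCm38.p4. The sources used here give no aligner, counter, annotation or strand setting. The count files list 25965 rows, of which 56 carry no gene ID (0.0559% to 0.0828% of counts) and were left out. The late stage is given as day 5 in titles and protocol and as d6 in the descriptions, and is called day 5 here. Line A2 is called KO2 in titles.

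Counts were fitted in R 4.3.3 with edgeR 4.0.16: filterByExpr (12856 genes), TMM factors (0.964 to 1.04), robust quasi-likelihood with 6 group means, common dispersion 0.0283, median prior degrees of freedom 4.37. In 9 comparisons, genes were called at an adjusted p under 0.05 over all genes. Levels are TMM-scaled CPM, and library ratios use log2 CPM with a prior count of 2. On simulated counts for KO against WT at day 3 (12564 genes), 22.8% of 1.5-fold, 69.4% of 2-fold and 93% of 4-fold changes were recovered and 0.0243% of unchanged genes were called. Alternatives were DESeq2 1.42.0, limma 3.58.1 (limma-trend on log2 of deposited CPM + 1), 3 other scalings, no filter, other samples in the fit and subsets of members. Positions come from GENCODE M21 (GRCm38). Uniqueness is the share of 50-base words of the longest coding transcript found in another M21 gene.

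KO line names pair libraries across stages: deviations of same-named KO libraries from group means correlated at 0.11 to 0.59, while WT numbers gave -0.05 to 0.07. Named members were chosen as the 3 members with the largest called change in each direction and comparison, the called member with the smallest adjusted p in each complex, isoform sets, complex II, Cyc1 and Cycs; those the text turns on are given by library and others by range, count or fold. Members and lists were chosen with earlier results of these data known. Values of 1 gene of the tricarboxylic acid cycle list are not reported here.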

Additional observations from a re-analysis of the deposited data

Results flagged for a closer look

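Ndufa4l2 changed side between stages. Its KO against WT log2 fold change was -1.23 in EpiLC, where all 3 KO libraries lay below all 3 WT libraries, 0.0919 at day 3, where they overlapped, and 0.812 at day 5, where all KO libraries lay above. Only the day 5 value passed the adjusted threshold of edgeR's quasi-likelihood test, and the difference between EpiLC and day 5 was not tested. The KO EpiLC levels were 0.476 to 2.32 CPM, with the lowest in the library labelled KO A2. Between EpiLC and day 3 the interaction did not pass edgeR's adjusted threshold (1.32, SE 0.46). Among the alternatives, the interaction was called only without the EpiLC library KO A5 (1.87, edgeR adjusted p = 0.0348) and with the replicate block (1.35, edgeR adjusted p = 0.0458). It was not called with DESeq2, limma-trend, the other scalings, no filter or without line A2. The fit without KO A5 keeps the EpiLC library labelled KO A2.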

How the results depend on the processing

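In KO against WT EpiLC, 19 members were called. Library totals gave 6, no filter 11, limma-trend 7 and only the groups compared 0 (and 0 of all genes). Leaving out single libraries gave 0 to 30 (0% to 34.5%, against 1.38% to 18.9% of all genes). At day 3 the 7 calls became 15 without line A2 (17.2%, against 20.9% of all genes). Without single libraries they became 1 to 8 (1.15% to 9.2%, against 4.74% to 11.2%). At day 5 the 13 became 23 without line A2 (26.4%, against 29.9%). Without single libraries the day 5 calls became 6 to 10 (6.9% to 11.5%, against 9.96% to 16.7%). The KO step from EpiLC to day 3 went from 25 to 4 with only the groups compared (4.71%, against 18.2% of all genes). It gave 45 without line A2 (51.7%, against 57%) and 18 to 41 without single libraries (20.7% to 47.1%, against 34.1% to 50.1%). The single call from day 3 to day 5 in WT became 19 with only the groups compared (21.8%, against 30.9% of all genes). It became 2 with the replicate block (2.3%, against 3.01%), 5 without line A2 (5.75%, against 15.5%) and 0 without any single library. The single call in KO became 0 with RLE factors, library totals, upper-quartile factors, no filter, limma-trend and only the groups compared. It became 2 with the replicate block (2.3%, against 1.68% of all genes), 5 without line A2 (5.75%, against 6.72%) and 0 to 1 without single libraries. The first interaction went from 0 to 1 with DESeq2 (1.15%, against 10.2% of all genes) and 2 with the replicate block (2.3%, against 11.3%). It gave 3 without line A2 (3.45%, against 14.7%) and 0 to 4 without single libraries (0% to 4.6%, against 2.76% to 11.7%). The other interaction gave 0 throughout.

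The WT step from EpiLC to day 3 stayed between 35 and 63 calls, where 41.8% to 77.8% of all genes were called. Under the replicate block it gave 54 (62.1%, against 62.5% of all genes) and the KO step 34 (39.1%, against 48.1%). No paired analysis was possible for KO against WT because the genotypes share no replicate names. Where 2 libraries remained, the fit pooled the spread over groups. Of 56 named gene and comparison pairs, 22 passed in every alternative and 0 reversed. The subsets of members by shared sequence and by complex were chosen after seeing the data. Depth limits Cox4i2, Cycs and Cox7b2, with at most 26, 18 and 32 counts in any library.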
